A study of Caenorhabditis elegans with 2 samples.

Results

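One-sided protein-coding promoters are places where a ChIP-seq summit lies close to the start of a protein-coding gene, without a divergently transcribed partner gene and without a small RNA start beside it. They were taken from a chromatin immunoprecipitation and sequencing experiment on GFP-tagged F57C9.4 in whole Caenorhabditis elegans. The members were chosen by the pooled signal value: the 5000 intervals with the highest value in the deposited list of both replicates pooled were kept. A summit was a member when it lay within 500 bp of a protein-coding start, had no tRNA, snoRNA, snRNA or piRNA start within 500 bp, and did not lie between a divergent pair of protein-coding starts that were both within 500 bp. Of the 5000 summits, 1417 (28.3%) met the rule. Of the others, 86 lay in a divergent pair, 110 beside a small RNA start and 3387 with no protein-coding start in the window. Among the 1417 members, 648 lay upstream of the nearest start and 769 lay downstream of it, the start base itself counting as downstream.

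The strain was OP550, with the unc-119 allele tm4063 on chromosome III and the integrated transgene wgIs550, from which F57C9.4 is made with GFP and FLAG fused to its C terminus. They were young adults of both sexes, collected 66 h after release from L1 starvation, and the precipitation used an antibody against GFP. Replicates 5 and 6 are the 2 biological replicates of a single group, and with no other condition there is no test between conditions. The experiment reports the tagged transgene product in a whole animal and does not separate the cell types in which it is made.

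A promoter is the stretch of DNA beside a gene start from which transcription is controlled, and sequence-specific factors that act there often bind shortly before the start. In C. elegans many genes sit in operons, where one promoter serves several genes in a row, and most transcripts are trans-spliced, so that an annotated start can lie some way from the base at which transcription begins. The side of a summit is therefore given relative to the annotated start only.

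A pair of short words on the same strand recurred in the windows of upstream members, GCGCAA followed 7 to 12 bases later by CTGGCGC. The windows below are some of those that carry the pair, and they are read 5′ to 3′ along the strand that holds it, with both words in capitals. The sequences are those of the RefSeq reference for WBcel235, the same assembly as ce11.
pcn-1: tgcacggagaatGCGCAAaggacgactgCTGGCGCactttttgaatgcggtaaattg
ddp-1: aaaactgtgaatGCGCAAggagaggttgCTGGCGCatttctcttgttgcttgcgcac
dnj-9: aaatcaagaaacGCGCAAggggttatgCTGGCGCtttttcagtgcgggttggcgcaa
smr-1: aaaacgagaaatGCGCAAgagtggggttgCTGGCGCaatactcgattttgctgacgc
Y39A1A.22: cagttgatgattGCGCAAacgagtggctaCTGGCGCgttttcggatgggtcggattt
These stretches are IV:4049663-4049719 on the minus strand for pcn-1, III:1859713-1859769 on the plus strand for ddp-1 and II:4851796-4851852 on the plus strand for dnj-9. They are III:1142967-1143023 on the plus strand for smr-1 and III:10707228-10707284 on the plus strand for Y39A1A.22. The gene pcn-1 encodes PCNA, the sliding clamp of DNA replication, ddp-1 encodes a small protein of mitochondrial protein import and dnj-9 a DnaJ-domain protein.

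Each of these stretches lies before the gene, and the pair was read along the gene in all of them except Y39A1A.22, where it was read against it. The ce11 assembly held 32 copies of the pair with a spacing of 7 to 12 bases, and 16 copies had the words exactly 10 bases apart. Of the 32 copies, 10 had a pooled summit of ranks 1 to 5000 within 60 bp, and 7 had one of ranks 1 to 1000. The word CTGGCGC on its own occurred at 4566 places, of which 79 had a summit of ranks 1 to 5000 and 23 one of ranks 1 to 1000 within 60 bp. With any other spacing up to 30 bases the pair occurred 37 times, with 3 summits of ranks 1 to 5000 and 0 of ranks 1 to 1000 beside it. Of the 10 copies, 9 lay beside a member, the nearest summit of all 9 was upstream of its gene, and 5 of the 9 were read in the direction of the nearest gene. The remaining copy lay beside a divergent summit at hpr-17, whose product belongs to the RAD17 family of DNA damage checkpoint proteins.

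Looked at from the copies rather than from the summits, 12 of the 32 copies lay upstream of a one-sided protein-coding start. Among those 12, 8 had a pooled summit of ranks 1 to 5000 and 6 had one of ranks 1 to 1000 within 60 bp. In the single replicates, 5 of the 12 had a summit among the 5000 best of replicate 5 and 6 had one among the 5000 best of replicate 6. Of the 32 copies, 18 had no pooled summit of any rank within 60 bp. Both the words and the spacing were chosen after the windows of the strongest members had been read, so the excess in those members is built in and these counts describe the copies without testing them.

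The other windows shown are those of the strongest upstream members and of members with a GA repeat, together with downstream windows for contrast. In the first pair the capitals mark a run of 21 bases that rpl-3 and cox-5A share in opposite orientation, and in the next group they mark the word GAGAGA or its complement TCTCTC. The last window holds none of the words searched, and each window reaches 50 bases to either side of the summit and is read 5′ to 3′ along the gene.
rpl-3: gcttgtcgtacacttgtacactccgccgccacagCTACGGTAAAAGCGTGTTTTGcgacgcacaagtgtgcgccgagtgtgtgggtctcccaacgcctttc
cox-5A: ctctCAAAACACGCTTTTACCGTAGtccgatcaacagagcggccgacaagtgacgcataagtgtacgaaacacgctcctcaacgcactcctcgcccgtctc
sec-61.G: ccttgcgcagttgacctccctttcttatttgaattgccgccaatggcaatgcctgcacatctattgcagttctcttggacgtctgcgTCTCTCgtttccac
puf-9: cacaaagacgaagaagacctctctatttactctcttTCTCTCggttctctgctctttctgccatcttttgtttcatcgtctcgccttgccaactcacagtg
T13C5.6: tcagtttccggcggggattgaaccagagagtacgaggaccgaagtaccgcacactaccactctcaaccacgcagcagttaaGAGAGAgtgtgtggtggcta
lab-2: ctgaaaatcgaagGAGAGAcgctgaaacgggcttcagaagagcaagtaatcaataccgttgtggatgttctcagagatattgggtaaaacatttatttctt
F21C10.10: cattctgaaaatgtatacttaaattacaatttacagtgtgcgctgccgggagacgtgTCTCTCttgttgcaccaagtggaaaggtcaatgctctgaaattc
Y49A3A.3: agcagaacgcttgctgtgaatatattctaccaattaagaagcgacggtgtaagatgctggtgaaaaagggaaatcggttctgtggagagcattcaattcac
The windows of rpl-3 (III:3867532-3867632, plus strand), cox-5A (III:12905157-12905257, plus strand), sec-61.G (V:10897343-10897443, minus strand), puf-9 (X:5841197-5841297, plus strand) and T13C5.6 (X:6207822-6207922, minus strand) lie in intergenic sequence upstream of the gene. The windows of lab-2 (III:7329459-7329559, minus strand), F21C10.10 (V:9096335-9096435, plus strand) and Y49A3A.3 (V:14354481-14354581, plus strand) are downstream windows whose summit lies in a coding exon.

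The run shared by rpl-3, which encodes a large-subunit ribosomal protein, and cox-5A, which encodes a subunit of cytochrome c oxidase, has 2 copies in ce11, namely these. Among the 66 pairs formed by the 12 strongest upstream windows, the median of the longest shared run was 7 bases and the next longest after that pair was 11 bases. This comparison was made after the windows had been seen.

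The strongest upstream members ranked near the head of both replicates' lists. The named members are the 12 upstream and 12 downstream members of highest pooled signal that were also covered by 1 of the 5000 best intervals in each replicate's list. The signal value is the authors' own and its scale differs between the lists, so values are read within a list. Being found in both replicates was part of how they were chosen. At rpl-3 the summit lay at III:3867582, 272 bp upstream of the start, with a signal of 163.6 in replicate 5 (rank 3), 84.1 in replicate 6 (rank 5) and 249.7 in the pooled list (rank 3). At tasp-1, which encodes the worm homologue of the protease taspase, the summit lay 50 bp upstream, with a signal of 86.8 in replicate 5 (rank 23), 93.0 in replicate 6 (rank 3) and 184.1 in the pooled list (rank 9). Ranks of the 2 replicates were close at rpl-3 and further apart at tasp-1.

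At cox-5A the summit lay 284 bp upstream of the start, with a signal of 77.0 in replicate 5 (rank 39) and 47.5 in replicate 6 (rank 81). At pcn-1 it lay 245 bp upstream, with a signal of 64.0 in replicate 5 (rank 75) and 53.04 in replicate 6 (rank 40). At ddp-1 it lay 181 bp upstream, with a signal of 64.4 in replicate 5 (rank 74) and 51.2 in replicate 6 (rank 53). These summits ranked among the 100 best intervals of each replicate. The remaining named upstream members were Y22D7AL.10, kel-3 (a kelch-repeat protein), H37A05.4, wwp-1 (a ubiquitin ligase), T13C5.6, R107.5 and fbxb-72 (an F-box protein), with pooled signals of 113.7 to 132.3. Among them T13C5.6 had rank 22 in replicate 5 and rank 255 in replicate 6, and R107.5 had rank 35 in replicate 5 and rank 312 in replicate 6. All 12 upstream summits ranked among the 360 best of each replicate. In 11 of the 12 the summit was intergenic, and the exception was kel-3, where it lay in an annotated 3′ UTR of a neighbouring gene.

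The highest pooled signals of all stood downstream of the nearest start. At zip-11, which encodes a basic leucine zipper transcription factor, the summit lay at IV:3311435, 159 bp downstream of the start in the 5′ UTR, with a signal of 347.2 in replicate 5, 230.8 in replicate 6 and 578.6 in the pooled list. It ranked 1 in all 3 lists. At F44E7.5 the summit lay at V:5780909, 13 bp downstream of the start in the 5′ UTR, with a signal of 295.8 in replicate 5, 164.3 in replicate 6 and 458.7 in the pooled list, and it ranked 2 in all 3. Another protein-coding start, for which this summit was upstream, also lay within 500 bp. Its side therefore rests on the nearer start. An annotated ncRNA start, F44E7.13, lay 40 bp from the F44E7.5 summit. Among the strongest members per side, such starts were also found 64 bp from the summit at wwp-1 and 37 bp from that at T13C5.6. Other members named in the text had non-coding starts nearby too. One lay 62 bp from the puf-9 summit, whose gene start was 345 bp away. Another lay 76 bp from the hsp-1 summit, whose gene start was 470 bp away. The rule did not remove starts of these classes, and their part in these summits was not tested.

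Below these, kin-14 (a protein kinase) had rank 11 in each replicate, with the summit 12 bp downstream of the start and a signal of 104.2 in replicate 5 and 74.5 in replicate 6. At prmt-5, which encodes a protein arginine methyltransferase, the summit lay 27 bp downstream in a coding exon, with rank 19 in replicate 5 and rank 25 in replicate 6. The remaining named downstream members were Y39B6A.43, pigq-1, frpr-10, Y71F9AL.8, D2096.7, F43G9.4, lab-2 and Y65A5A.2, with pooled signals of 91.4 to 115.6. At Y65A5A.2 the rank was 58 in replicate 5 and 1492 in replicate 6. Of the 12 downstream summits, 12 ranked among the 360 best of replicate 5 and 11 among those of replicate 6, the exception being Y65A5A.2. They were spread evenly over 5′ UTRs, coding exons and introns, with 4 in each. GC content of the windows ran from 33.7% to 57.4% around a median of 51.98% for the 12 upstream summits, and from 31.7% to 63.4% around a median of 41.1% for the 12 downstream summits. Of the 12, 7 upstream and 2 downstream summits lay on chromosome III, which held 17.2% of all members.

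**Figure D1:**
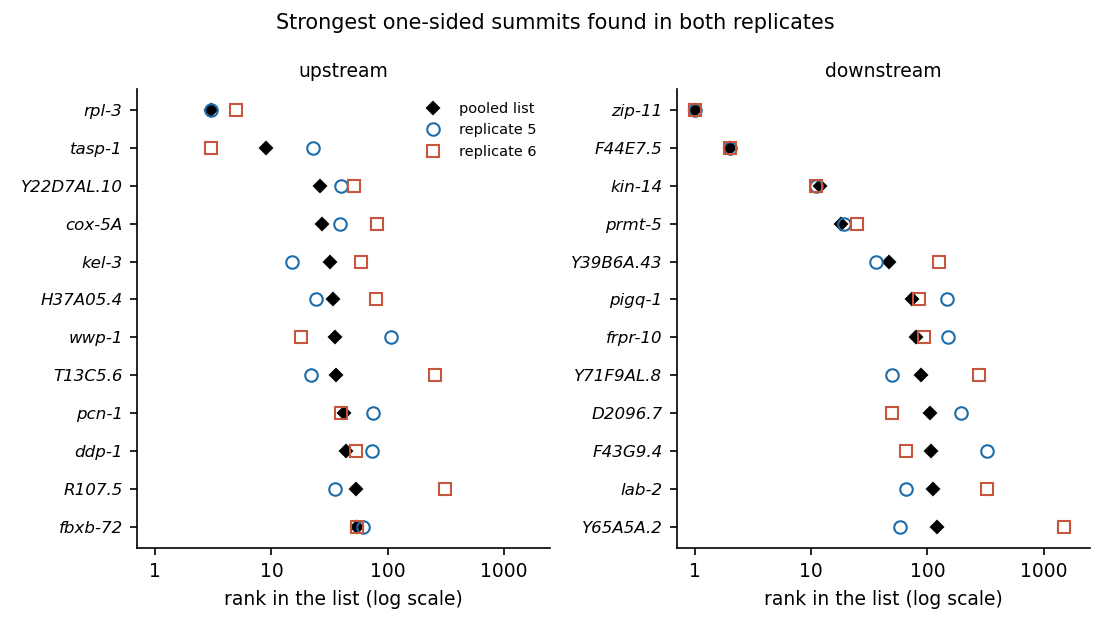
Rank of the summit's interval in 3 lists, pooled, replicate 5 and replicate 6 (log axis, rank 1 is the highest signal value) for the 12 named upstream members, left, and the 12 named downstream members, right. At zip-11 and F44E7.5 the 3 ranks coincide at 1 and 2, and the widest spread is at Y65A5A.2, with rank 58 in replicate 5 and 1492 in replicate 6.

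At the end of the list, the last members inside were T14G8.6, downstream with a signal of 35.611 at rank 4994, and svh-5, upstream with a signal of 35.605 at rank 4997. The first one-sided summits outside were nhr-211, upstream with 35.572 at rank 5015, and his-59, downstream with 35.570 at rank 5017. The signal had no step at this limit.

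Most members were not in the reproducible set, as in the list they came from. The irreproducible discovery rate (IDR) list, which the authors derived from the replicates' lists and the pooled list, held 7.13% of the 1417 members, against 7.2% of all 5000 intervals. It held 66 of 648 upstream members (10.2%, Wilson 95% interval 8.09 to 12.8%) and 35 of 769 downstream members (4.55%, interval 3.29 to 6.26%). The 360 IDR peaks were exactly the 360 best pooled intervals, so these shares restate the pooled rank that chose the members. Intervals on shares cover counting error over summits only.

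A member was taken as found in a replicate if 1 of that replicate's 5000 best intervals covered its summit. In replicate 5, 63.9% of upstream and 57.1% of downstream members were found, against 61.1% of all 5000 pooled summits. In replicate 6, 49.2% of upstream and 45.0% of downstream members were found, against 45.6% of all 5000. In both replicates, 172 of 648 upstream members (26.5%, interval 23.3 to 30.1%) and 150 of 769 downstream members (19.5%, interval 16.9 to 22.5%) were found, against 22.3% of all 5000. The upstream share was the higher one in each replicate over all members, and ranks 1 to 1000 held 180 of the 648 upstream and 116 of the 769 downstream members. Within rank groups the order was not kept. At ranks 1001 to 5000, 9.402% of upstream and 10.9% of downstream members were found in both replicates, and 36.8% and 39.2% in replicate 6. At ranks 1 to 1000, 71.1% and 68.1% were found in both replicates, and 89.4% and 90.5% in replicate 5. The replicates went into the pool, so these shares are not independent of the choice of members. Among members with an interval anywhere in both replicate lists, Spearman's rho between the replicates' signals was 0.08 over 520 upstream members and −0.10 over 602 downstream members, and 0.01 over all pooled intervals of ranks 1 to 5000 in both lists. Members were chosen on the pooled signal, into which both replicates went, and such a choice lowers the correlation between its parts, so rho is no measure of reproducibility here.

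The share of summits upstream of the start was not the same along the list. Taken as a whole, 45.7% of members were upstream (interval 43.2 to 48.3%), and 46.8% of the 21635475 genome bases that meet the positional rule are upstream. At pooled ranks 1 to 360, 66 one-sided summits were upstream and 35 downstream (65.3% upstream, interval 55.7 to 73.9%). At ranks 361 to 1000 the share was 58.5% (51.4 to 65.1%), at ranks 1001 to 2500 it was 41.3% (36.7 to 46.1%) and at ranks 2501 to 5000 it was 41.99% (38.4 to 45.7%). Among the 6051 one-sided summits beyond rank 5000, in a list that ends at 30000, it was 41.5% (40.2 to 42.7%). A majority upstream was thus seen at the head of the list and a minority in the rest of it.

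The replicates' own lists showed the same at their head and not further down. At ranks 1 to 360 the upstream share was 66.0% in replicate 5 and 64.2% in replicate 6. At ranks 361 to 1000 it was 46.7% in replicate 5 and 43.98% in replicate 6, both near the 46.8% of eligible bases, so the 58.5% at these ranks was seen in the pooled list only. Over all 5000 it was 45.7% in replicate 5, with 1340 one-sided summits, and 44.4% in replicate 6, with 1364. Ranks were grouped after the data had been seen.

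**Figure D2:**
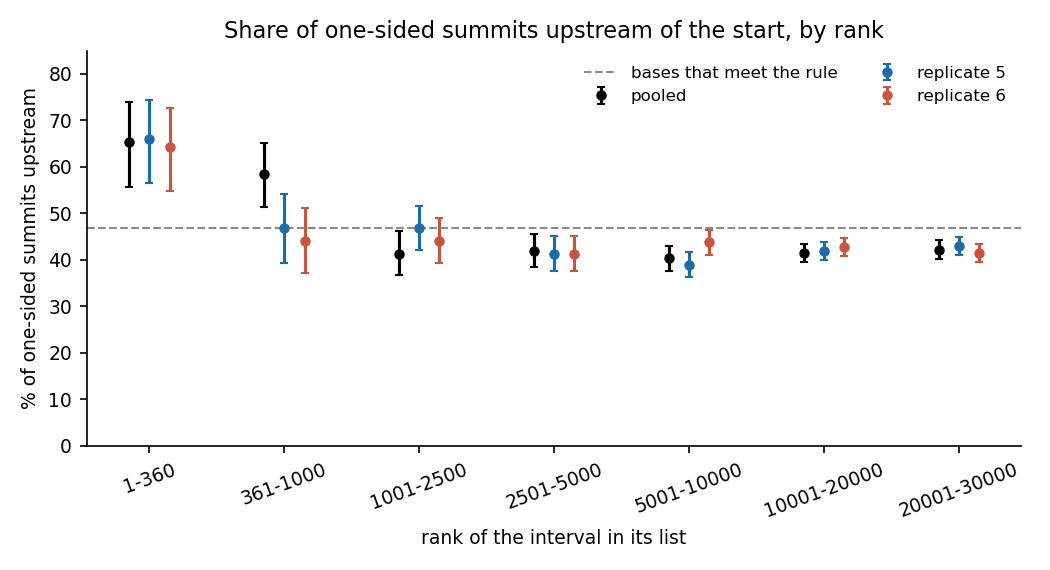
Share of one-sided summits that lie upstream of the nearest protein-coding start (vertical axis, %), by rank group in the pooled list and in each replicate's list. Bars are Wilson 95% intervals over summits and the dashed line is the upstream share of eligible bases, 46.8%. All 3 lists stand at 64.2 to 66.0% at ranks 1 to 360, and at ranks 361 to 1000 only the pooled list, at 58.5%, stays above the line.

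Distances to the start were similar on both sides. The median was 179.5 bp for upstream members (quartiles 88 and 319 bp) and 195 bp for downstream members (quartiles 88 and 333 bp). Upstream, 64.7% of members lay within 250 bp of the start, against 57.6% of upstream summits beyond rank 5000. Downstream, 59.7% did, against 56.5% at those ranks. The upstream median was 205 bp for the 180 summits of ranks 1 to 1000, 170.5 bp for the 468 of ranks 1001 to 5000 and 208 bp for the 2509 beyond rank 5000, so it did not move one way with rank. The fullest 50-bp bin for ranks 1 to 1000 was the one that ends 150 bp upstream, with 27 of 296 summits (9.12%), and for ranks 1001 to 5000 it was 0 to 49 bp downstream, with 94 of 1121 (8.39%).

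**Figure D3:**
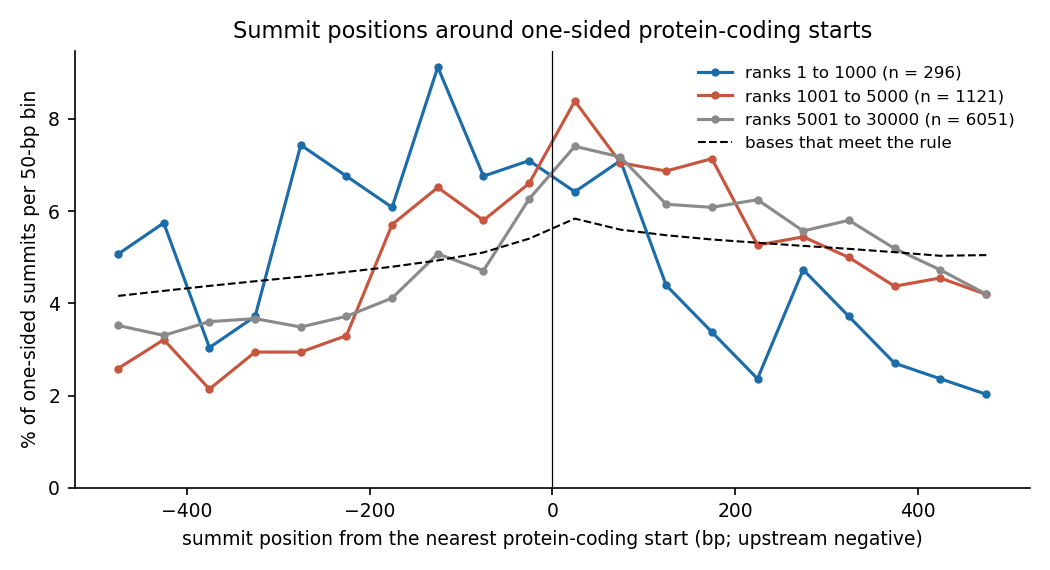
Share of one-sided summits per 50-bp bin (vertical axis, %) by position from the nearest protein-coding start (horizontal axis, bp, upstream negative), for 3 rank groups of the pooled list and for all bases that meet the rule. Ranks 1 to 1000 are highest in the bin that ends 150 bp upstream, at 9.12%, while ranks 1001 to 5000 are highest 0 to 49 bp downstream, at 8.39%.

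Upstream members lay mostly outside genes, at shares near those of the eligible upstream bases, and downstream members mostly in coding exons. Of the 648 upstream summits, 63.1% were intergenic, 21.6% were in an intron and 7.87% in a coding exon, where 65.0%, 20.7% and 7.33% of the eligible upstream bases lie. Of the 769 downstream summits, 63.1% were in a coding exon, 26.5% in an intron and 8.45% in a 5′ UTR, where 50.1%, 38.5% and 8.87% of the eligible downstream bases lie. Coding exons thus held more, and introns fewer, of the downstream summits than of the bases, and the lower ranks had the same order, with 60.3% in coding exons and 29.4% in introns. GC content differs between exons and introns, and its part in this was not tested.

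Of the upstream members, 158 of 648 (24.4%) had a gene on the same strand that ended at most 500 bp before the start, the arrangement found inside operons. This held for 60 of the 180 of ranks 1 to 1000 (33.3%) and for 426 of the 2509 beyond rank 5000 (16.98%). No share over eligible bases or over all genes is given, and the rule itself takes out summits between divergent pairs. Genes that overlap the start were passed over here, and 12.2% of upstream members lay inside another gene. Whether these genes are in operons was not tested. The median gap to the gene before was 1663 bp for upstream members, 939.5 bp for those of ranks 1 to 1000 and 2216.5 bp for the lower ranks. Chromosome X held 7.09% of one-sided summits of ranks 1 to 1000, 12.7% of all members and 16.1% of those beyond rank 5000, with 14.9% of the eligible bases. Its 180 members were 52.8% upstream, the highest share of any chromosome, with an interval of 45.5 to 59.9% that overlapped those of the others.

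The members were richer in GC than the bases around starts, and so to a smaller degree were the lower ranks. The mean GC content of the window reaching 50 bp to either side of the summit was 43.6% ± 9.82 (SD, n = 648) for upstream members and 44.2% ± 8.71 (SD, n = 769) for downstream members. It was 39.6% and 41.5% for upstream and downstream summits beyond rank 5000, and 34.4% and 37.2% over eligible upstream and downstream bases. Upstream summits were GC-richer than downstream ones at ranks 1 to 1000, with 45.7% ± 9.49 (SD, n = 180) and 43.4% ± 9.02 (SD, n = 116), while at ranks 1001 to 5000 they were poorer, with 42.9% and 44.3%. Replicate 5 gave 44.4% upstream and 43.4% downstream at ranks 1 to 1000, and replicate 6 gave 43.9% and 43.5%. Upstream minus downstream, the difference at these ranks was 2.31 ± 1.10 percentage points over the pooled intervals, while replicate 5 gave 1.03 ± 1.10 and replicate 6 gave 0.422 ± 1.11 (standard error over summits, which are not replicates). Along the profile, members of both sides had their highest mean GC content in a 20-bp bin at or next to the summit. Ranks 1 to 1000 downstream were still at 43.3% in the bin 70 to 89 bp after the summit, against 44.01% at it. Beyond rank 5000, upstream summits had 39.2% at the summit, below the 40.1% and 40.2% of the bins to either side.

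**Figure D4:**
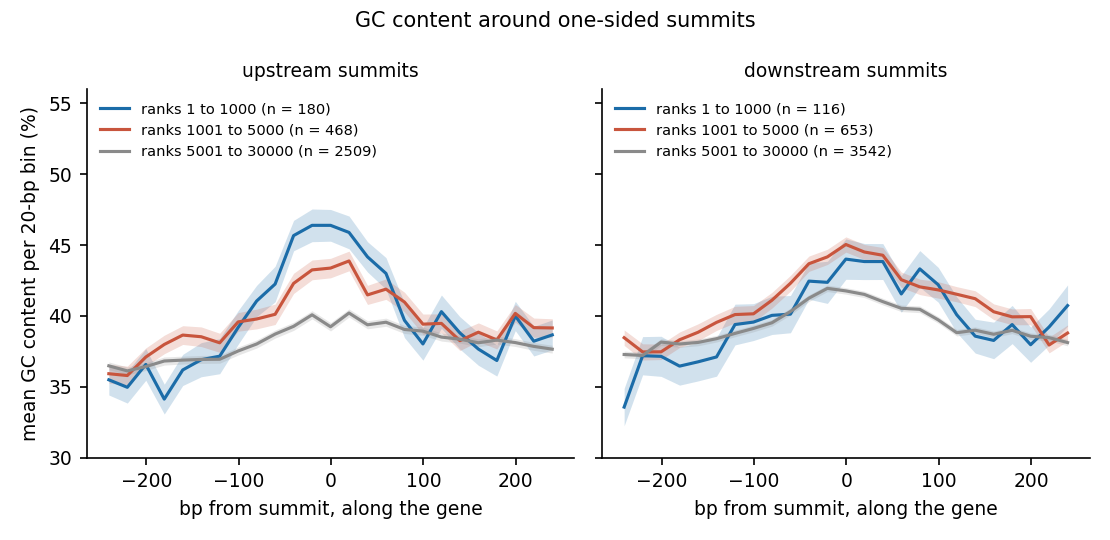
Mean GC content per 20-bp bin (vertical axis, %) by distance from the summit along the gene (horizontal axis, bp), for upstream summits, left, and downstream summits, right, in 3 rank groups of the pooled list. Shading is the standard error over summits. In the bin at the summit, upstream summits of ranks 1 to 1000 reach 46.4% and those beyond rank 5000 39.2%.

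Of the 9 words listed for the search on both strands, 4 had intervals for upstream and downstream members of the pooled list that did not overlap. The first of them, GAGAGA, a repeat of G and A, lay in the windows of 105 of 648 upstream members (16.2%, interval 13.6 to 19.2%) and 57 of 769 downstream members (7.41%, interval 5.76 to 9.48%). Beyond rank 5000 the shares were 9.53% upstream and 5.56% downstream, and for windows centred on eligible bases they were 7.05% and 4.73%. It was found in 13.7% of upstream (interval 11.2 to 16.7%) and 6.18% of downstream windows in the replicate 5 list. Beyond rank 5000 of that list the shares were 9.90% and 5.89%. In the replicate 6 list it was found in 10.9% (interval 8.67 to 13.6%) and 6.46%, and beyond rank 5000 in 9.49% and 5.54%. The upstream interval of replicate 6 thus covered the share at its lower ranks. At ranks 1 to 1000, replicate 5 gave 21.5% upstream and 5.56% downstream, and replicate 6 gave 13.0% and 11.0%. Upstream, the share was 13.6% at pooled ranks 1 to 360, then 21.1%, 16.9% and 14.5% in the next 3 rank groups of members, and 12.1%, 9.55% and 8.14% in the groups beyond rank 5000. It was thus lower in each further group from rank 361 on. Of the 105 upstream members with the word 9 were IDR peaks (8.57%), against 57 of the 543 without it (10.5%). Downstream the order was the other one, with 7 of 57 with it (12.3%) and 28 of 712 without it (3.93%). The windows with it were GC-richer, with 47.1% with and 43.0% without it upstream, and the part of GC content was not tested.

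The second, CTGCGTC, lay in 3.86% of upstream and 1.30% of downstream members, with 2.19% and 0.988% at the lower ranks and 1.29% and 0.685% over eligible bases. Its intervals overlapped in the replicate 6 list (2.55 to 5.64% upstream, 1.20 to 3.23% downstream) and not in that of replicate 5 (2.26 to 5.19% and 0.558 to 2.15%). The third, the Sp1-like word CCCGCC, lay in 4.94% of upstream and 1.95% of downstream members, with 2.12% and 1.41% over eligible bases. The fourth, TTTTTTT, lay in 15.6% of upstream and 9.62% of downstream members, with 24.2% and 16.8% over eligible bases, so this run was less common at summits than around starts. Its intervals overlapped in the replicate 5 list (12.3 to 17.9% upstream, 8.67 to 13.2% downstream) and not in that of replicate 6 (12.26 to 17.9% and 7.96 to 12.21%). The TATA box-like word TATAAA lay in 9.26% of upstream and 5.46% of downstream members, with 13.3% and 10.3% over eligible bases. Its order was the other one at pooled ranks 1 to 1000, with 5.56% and 7.76%, and in the list of replicate 6, with 6.94% and 7.77%. The splice acceptor-like word TTTCAG lay in 14.8% and 19.5%, with 18.9% and 22.1% over eligible bases. The GATA factor-like word TGATAA lay in 5.71% and 5.85%, below the 10.9% and 9.26% over eligible bases. The E-box CACGTG lay in 3.24% and 3.51% of upstream and downstream members, above the 1.91% and 1.80% over eligible bases. The basic leucine zipper half-site TGACGT lay in 3.86% and 4.42%, with 3.34% and 3.29% over eligible bases. A match is a description of letters in the window and not a bound site. The word CTCTCGG given next can overlap GAGAGA on its other strand.

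Of the words added after the sequences had been seen, GCGCCAG, the complement of CTGGCGC, lay in 30 of 648 upstream members (4.63%, interval 3.26 to 6.53%) and 6 of 769 downstream members (0.780%, interval 0.358 to 1.69%). Over eligible bases 0.451% of upstream and 0.414% of downstream windows held it. It was picked from upstream windows of ranks 1 to 1000, where 14 of 180 held it and 0 of 116 downstream windows did, so that contrast is built in. At ranks 1001 to 5000, which did not enter the choice, 16 of 468 upstream windows (3.42%, interval 2.12 to 5.48%) and 6 of 653 downstream windows (0.919%, interval 0.422 to 1.99%) held it. In the replicates' lists, whose windows overlap the pooled ones, 2.94% of upstream and 0.824% of downstream windows held it in replicate 5, and 3.31% and 0.659% did in replicate 6. CGCGCTC lay in 27 upstream (4.17%) and 8 downstream members (1.04%). Its shares were 0.684% and 0.429% over eligible bases, and 1.63% and 0.565% beyond rank 5000. CTCTCGG lay in 21 upstream (3.24%) and 10 downstream members (1.30%). Its shares were 0.599% and 0.621% over eligible bases, and 1.12% and 0.734% beyond rank 5000. CGCGCTC was also listed from windows of ranks 1 to 1000, so its excess there is built in too. At ranks 1001 to 5000 the counts for CGCGCTC were 11 of 468 upstream (2.35%) and 4 of 653 downstream (0.613%). For CTCTCGG they were 8 of 468 (1.71%) and 8 of 653 (1.23%).

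**Figure D5:**
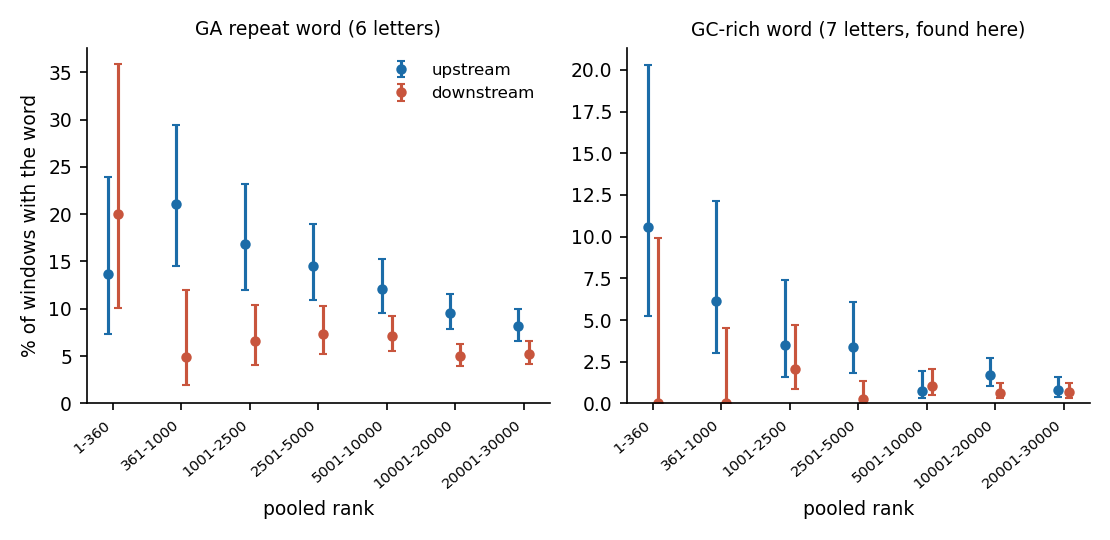
Share of windows of 50 bp to either side of the summit (vertical axis, %) that hold GAGAGA, left, or GCGCCAG, right, by pooled rank group, for upstream and downstream one-sided summits, with Wilson 95% intervals. GAGAGA is highest upstream at ranks 361 to 1000 (21.1%) and stands at 7 of 35 downstream windows at ranks 1 to 360, while GCGCCAG upstream is at 10.6% at ranks 1 to 360 and 6.14% at ranks 361 to 1000, in windows it was picked from.

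The 14 members of ranks 1 to 1000 with GCGCCAG were all upstream and all intergenic, and the windows at pcn-1, ddp-1, eif-3.C, F26F2.7, dnj-9 and smr-1 also held the pair with GCGCAA. At sri-5 the nearest copy of the pair reached beyond the window, and the GCGCCAG counted was another copy of the word. The others were at eelo-2, C34C12.8, smu-1, gsa-1, ubxn-2, F44E7.9 and fbxl-2. The gene eif-3.C encodes a subunit of the translation initiation factor eIF3, and its summit had a signal of 75.3 at pooled rank 234, with rank 374 in replicate 5 and rank 1139 in replicate 6. Replicate ranks were uneven for some of these, with gsa-1 at 16261 in replicate 5 and 92 in replicate 6, and smr-1 at 1394 in replicate 5 and with no interval in replicate 6. These genes are named for the word they carry and were chosen after their values were seen.

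The members lay nearest to 1287 protein-coding genes. Upstream members lay nearest to 613 of 19973 genes (3.07%) and downstream members to 733 (3.67%), with 59 genes in both counts and 114 genes with 2 or more members. The most members at 1 gene was 4, at ZK470.2, spsb-1 and tent-5, which were named after their values were seen. Members are not independent where they share a gene, and the intervals of 110 members overlapped that of another.

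Translation factor and chaperone genes had more upstream than downstream members. Among translation factors and tRNA synthetases, 8 of 65 genes (12.3%) had an upstream and 1 (1.54%) a downstream member, led by eif-3.C, eef-1A.2 (elongation factor 1A, pooled signal 65.0) and iff-2 (eIF5A, 53.4). Among chaperones, 7 of 59 had an upstream and 4 a downstream member, led by dnj-20 (77.5) and the Hsp70 genes hsp-3 (69.1) and hsp-1 (66.0), and hsp-1 had rank 154 in replicate 5 and 15728 in replicate 6. Ribosomal protein genes had 6 upstream and 6 downstream of 82, led by rpl-3, rpl-35 (112.3) and rpl-24.2 (58.2), all upstream. Among chromatin regulators, 6 of 97 had an upstream and 2 a downstream member, led by lin-9 (84.8) and lin-52 (63.3), which encode subunits of the DREAM repressor complex, and set-2 (59.0), a histone H3 methyltransferase. Each list is to be read beside the 3.07% and 3.67% of all genes.

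Mitochondrial ribosome and proteasome genes showed the opposite side. Mitochondrial ribosome genes had 0 upstream and 6 downstream of 70, led by mrpl-41 (67.2, 57 bp downstream) and mrps-14 (61.7, 157 bp downstream). Proteasome genes had 0 upstream and 4 downstream of 33, led by the 20S subunit genes pas-2 (60.3) and pbs-5 (51.9). The signal at pas-2 had rank 377 in replicate 5 and the summit was in no interval of replicate 6. These are small counts without a test.

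Basic leucine zipper genes had members on both sides, 6 upstream and 7 downstream of 36. They were led by zip-11, atf-7 (77.3, 73 bp downstream), which acts in innate immunity, and skn-1 (54.7, 80 bp upstream), the worm counterpart of Nrf factors. Both atf-7 and skn-1 ranked high in replicate 5, at 100 and 557, and low in replicate 6, at 8221 and 12754. Autophagy and lysosome genes had 9 upstream and 9 downstream of 74, led by epg-9 (83.5, upstream), vha-3 (55.4, downstream), a subunit of the vacuolar proton pump, and lgg-2 (55.02, upstream), an LC3 homologue. Splicing genes had 2 and 2 of 44, led by lsm-8 (90.9) and lsm-6 (77.8), both upstream and both among the 206 best of replicate 6.

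Chemoreceptor and F-box genes had few members. Chemoreceptor genes had 7 upstream (0.603%) and 11 downstream (0.947%) of 1161, and the strongest was sri-5 (84.4, 200 bp upstream). F-box and MATH-BTB genes had 4 upstream (0.971%) and 3 downstream (0.728%) of 412. Nuclear hormone receptor genes had 5 (1.82%) and 12 (4.38%) of 274, homeobox genes 3 (3.26%) and 6 (6.52%) of 92, collagen and cuticle genes 5 (2.18%) and 10 (4.37%) of 229, and detoxification genes 3 (1.35%) and 7 (3.14%) of 223. In these last 4 lists the downstream count was the larger one, as it was over all genes, and in the first 3 of the 4 the downstream share was above the 3.67% of all genes. Neuronal signalling genes had 7 (2.61%) and 12 (4.48%) of 268, cell cycle genes 2 and 6 of 73, and muscle genes 2 and 3 of 43. Oxidative phosphorylation genes had 3 and 2 of 44, and germline RNA-binding genes 2 and 2 of 57. Genes entered a list by symbol and not by function, among them rrf-1 (germline RNA-binding), emb-8 (cell cycle) and dpy-21 (collagen and cuticle). The name of a list need not hold for each gene in it, which matters at such small counts.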

How the data were processed

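ChIP-seq peak lists of 2 biological replicates, 5 and 6, were used. Per the file headers and the deposited accompanying text, they are narrowPeak lists on ce11, made from each replicate or from both pooled. The aligner and peak caller were not given in the sources used here. A control experiment is named only as possible. The lists give the authors' signal value, a score whose scale differs between lists, used to rank intervals. The deposited −log10 q-value played no part in the choice of members, and no threshold on it was applied. It ran from 2.31 down to 0.428 over upstream and over downstream members. It was 1.35 at pbs-5 (rank 1014) and 0.428 at svh-5 (rank 4997), so members low in the list had weak q-values. The other deposited value used, the summit offset, gave each summit. Further columns held a constant and were not used, nor were the ce10 lists. Each list held 30000 intervals, so most are background. The median interval was 404 bp wide, which bounds how finely a summit is placed. Read depth is unknown, so no counting error of a signal value can be given.

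Starts were the 5′ ends of all transcripts of Ensembl release 115 (WBcel235, the assembly of ce11). The members, gene lists, words and tests were chosen with earlier results of these data known. Named genes were the 12 strongest per side found among the 5000 best of both replicates, the members at the rank limit, and up to 3 per gene list. Lists were 20 symbol patterns, and a guard against partial matches was added after the data were seen. Of the words, 3 were added by eye after 9 listings of the most over-represented 7-, 9- and 12-letter words (90 words in all, 151-bp windows). In the 7-letter listings GCGCCAG and CGCGCTC had a place, and CTCTCGG had none. One window with the paired words is not reported here. The paired words were noticed when windows were read, and the shared run was looked for in the same way. Nothing was tested between groups, since there is 1 group: shares have Wilson 95% intervals, over summits that are not replicates. The rule, the side call and the word search were tested on simulated data. Alternatives changed the list depth, the window, the starts, the members per gene, the lists and the GC width. Scripts used Python 3.11.15, NumPy 2.4.6, pandas 2.3.3 and SciPy 1.17.1.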

Additional observations from a re-analysis of the deposited data

How the results depend on the processing

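The data have 1 group, so no value has a test. Over 14 alternatives, 74 of 153 values moved by less than the SD between the 2 replicates' lists (by less than the Wilson interval where 1 list gave no value, and by less than 1.5 times for the count of members). The IDR share was higher upstream than downstream in 12 of 12 alternatives that gave it. The IDR peaks are the 360 best pooled intervals in each of these alternatives, so that order was largely fixed beforehand. For the single replicates' lists, a summit counted when an IDR peak covered it. GC content was higher upstream in 3 of 14. The next 2 paragraphs give the values that moved further, and the last gives the range over the single replicates' lists, whether or not they moved. The cause was not tested. Each list is upstream first, then downstream.

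With the best 2500 intervals there were 712 members, 49.4% upstream, at median distances of 186.5 and 164 bp, with 18.8% and 9.72% IDR peaks, 44.4% GC upstream, 78.1% and 72.8% found in replicate 5 and 65.1% and 58.3% in replicate 6. With the best 10000 there were 2704, 43.2% upstream, at 187 and 210.0 bp, with 5.66% and 2.28% IDR peaks, 42.3% and 43.5% GC, 45.1% and 39.9% found in replicate 5 and 35.8% and 30.7% in replicate 6. With the best 1000, added after seeing the data, there were 296, 60.8% upstream, at 205 and 176 bp, with 36.7% and 30.2% IDR peaks, 45.7% and 43.4% GC, 89.4% and 90.5% found in replicate 5 and 81.7% and 77.6% in replicate 6. With IDR peaks only the count of members was kept by side alone, and there were 66 upstream and 35 downstream members against 648 and 769, 65.3% upstream, at 190.5 and 121 bp, with 46.7% GC upstream, 98.5% and 97.1% found in replicate 5 and 93.9% and 94.3% in replicate 6.

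A 250-bp window gave 933 members, 49.5% upstream, at 118 and 110.0 bp, with 11.5% and 5.52% IDR peaks and 43.1% GC upstream. A 1000-bp window gave 42.6% upstream, at 330.0 and 369 bp, with 9.02% IDR peaks upstream. With 1 start a gene the median distance upstream was 194 bp, 12.2% of upstream members were IDR peaks and GC content downstream was 43.7%. Without members that had starts on both sides the median distance upstream was 188 bp, and without those near a non-coding start it was 176 bp, with 43.2% GC upstream. With 1 member a gene 11.0% and 5.01% were IDR peaks. Windows of 100 bp to either side had 42.1% and 42.9% GC.

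With a single replicate's list in place of the pooled one, the count of members was 1340 to 1364, the share upstream 44.4 to 45.7%, the median distance 199 to 202 bp upstream and 196 to 211 bp downstream, and the GC content 41.7 to 42.2% upstream and 42.7 to 43.3% downstream. The IDR share was 10.25 to 11.3% upstream and 4.35 to 4.95% downstream. Of the one-sided summits in the list without replicate 5, 28.1% upstream and 18.3% downstream were found among the 5000 best of replicate 5. Of those without replicate 6, 27.3% upstream and 19.5% downstream were found among the 5000 best of replicate 6. No share over all 5000 intervals of a single replicate's list is given beside these. They therefore do not show whether one-sided summits differ from the whole list. The share found in a replicate for its own list has no meaning and was not computed. No paired analysis was possible because there is 1 group.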

Other observations

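A word resembling the B box, the internal promoter element of tRNA genes, was also tried and followed neither side nor rank. GTTCNANNC, searched on both strands within 50 bp of the summit, lay in 21 of 648 upstream members (3.24%, Wilson 95% interval 2.13 to 4.90%) and 37 of 769 downstream members (4.81%, interval 3.51 to 6.56%). At ranks 1 to 1000 it lay in 3.89% of upstream and 4.31% of downstream windows, and beyond rank 5000 in 3.95% and 3.98%. The window of T13C5.6, shown above for its GA repeat, also holds this word, on the strand opposite to the gene.

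Divergent summits had a higher IDR share than one-sided ones. Of the 86 divergent summits, 24 were IDR peaks (27.9%, interval 19.5 to 38.2%), against 66 upstream and 35 downstream of 1417 one-sided summits (7.13%, interval 5.90 to 8.59%). Both shares restate the pooled rank.

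Non-coding starts of classes that the rule did not remove lay within 500 bp of 63 of the 648 upstream and 53 of the 769 downstream members. Protein-coding starts lay on both sides of 48 upstream and 59 downstream members, for which the side rests on the nearer start.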
